A study of Saccharomyces cerevisiae with 8 samples.

Results

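The genes that encode the proteins of the yeast cytosolic ribosome were followed across both media and both genotypes of this series. They were chosen by name, as genes called RPL or RPS with a number and an optional A or B, and as the acidic stalk genes called RPP. Of the 5774 genes listed, 138 carried such a name. One of these, *RPP1* (YHR062C), encodes a subunit of the RNases P and MRP and was set apart, which left 137 ribosomal protein genes. Of these, 81 encode proteins of the large subunit and 56 of the small subunit. They form 59 pairs of A and B copies and 19 single-copy genes.

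The study asked how the loss of Pbp1, the yeast relative of ataxin-2, changes mRNA levels in glycolytic and respiratory media. Poly-A RNA was sequenced from CEN.PK cells, a prototrophic laboratory strain, in 2 biological replicates of each of 4 groups. The groups were WT cells in log phase in YPD (yeast extract, peptone and glucose), WT cells 3 h after the switch to YPL (with lactate as the carbon source), and *pbp1Δ* cells treated in each of these ways. In *pbp1Δ* cells *PBP1* was replaced by a hygromycin resistance marker, and nothing names more than a single deletion strain, so that p-values cover the spread between these libraries.

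Each library held 33651287 to 39476235 reads on the listed genes when the deposited values were converted to reads. *PBP1* had 11112 to 12686 normalized counts in the WT libraries and 0 to 0.93 in the *pbp1Δ* libraries. The *pbp1Δ* libraries also differed from WT in mating-type transcripts. *MF(ALPHA)1*, which encodes the α-factor pheromone, had 3.0 to 75.8 normalized counts in WT and 33306 to 96273 in *pbp1Δ* libraries. The a-specific *STE2* had 4165 to 30338 in WT and 345 to 390 in *pbp1Δ* libraries, and the α-specific *STE3* 209 to 275 and 4744 to 17118. Reads assigned to *HMRA1*, a gene of the silent mating-type cassette, gave 1174 to 1509 normalized counts in WT libraries and 0 in each *pbp1Δ* library. They do not show that the silent copy was expressed. The paper lists WT as MATa and gives no mating type for *pbp1Δ*. The genotype and this second difference between the strains cannot be told apart.

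Ribosomal protein genes are transcribed by RNA polymerase II and are among the most active genes of growing yeast. Rap1 binds the promoters of most of them and recruits Fhl1 and its coactivator Ifh1, while Sfp1 and Hmo1 act at many of the same promoters. TORC1 and protein kinase A couple this transcription to nutrients, and a poor carbon source or stress turns it down together with the genes for ribosome assembly. Many of the genes were kept as near-identical copies after an ancient genome duplication, and many carry an intron, which is rare in this yeast.

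The sequences below show why reads could be assigned to a copy. They are the first 120 bases of the spliced coding sequence in the R64 genome, 5′ to 3′, of the 3 pairs whose A to B ratio changed most between media. Capitals mark the bases that differ between the copies.

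RPL9A: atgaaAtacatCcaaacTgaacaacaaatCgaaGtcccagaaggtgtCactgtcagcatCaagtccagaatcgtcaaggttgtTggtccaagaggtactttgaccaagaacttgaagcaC
RPL9B: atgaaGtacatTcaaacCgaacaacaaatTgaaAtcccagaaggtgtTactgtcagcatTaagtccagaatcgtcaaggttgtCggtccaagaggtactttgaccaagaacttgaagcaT
RPS9A: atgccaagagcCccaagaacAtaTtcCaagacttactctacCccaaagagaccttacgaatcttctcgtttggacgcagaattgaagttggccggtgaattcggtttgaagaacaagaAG
RPS9B: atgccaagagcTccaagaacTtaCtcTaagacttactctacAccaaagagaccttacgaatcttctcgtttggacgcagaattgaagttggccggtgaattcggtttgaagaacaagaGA
RPL15A: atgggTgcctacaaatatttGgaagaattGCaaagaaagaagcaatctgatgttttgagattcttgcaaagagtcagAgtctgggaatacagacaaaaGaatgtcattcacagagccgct
RPL15B: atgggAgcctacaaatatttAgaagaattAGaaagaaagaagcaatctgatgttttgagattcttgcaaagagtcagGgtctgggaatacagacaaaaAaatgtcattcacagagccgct

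The copies differ at 9 of these bases in *RPL9*, at 7 in *RPS9* and at 6 in *RPL15*. Over the whole coding sequence the copies are 93.8% identical in *RPL9*, 91.1% in *RPS9* and 93.2% in *RPL15*. Only uniquely mapped reads had been counted. In 105 of the 137 genes every 100-base stretch of the genome centred on a coding base occurs once. In 14 genes, among them both copies of *RPL7* and *RPL11*, fewer than 80% of the stretches do. Stretches near the end of a coding exon include intron or flanking bases, so that the share over spliced mRNA can differ. Values of those 14 genes may miss reads that fit both copies equally.

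The switch to YPL lowered the ribosomal protein transcripts as a block. In YPD the 137 genes held 18.6% and 19.8% of all normalized counts in the WT libraries, and 18.3% and 20.4% in the *pbp1Δ* libraries. In YPL they held 7.99% and 6.54% in WT and 6.99% and 6.97% in *pbp1Δ* libraries. Every YPD library was above every YPL library, at 19.3% ± 0.967 (SD, n = 4) against 7.12% ± 0.615 (SD, n = 4). The difference of -12.1 percentage points had a two-sided exact permutation p of 0.0286, the smallest that 4 libraries against 4 can give. The genotypes differed by -0.0778 percentage points over both media, with 0.126 in YPD and -0.282 in YPL. The exact permutation p of 1.0 was taken over the libraries of both media together. With both media in each genotype the SD was 7.17 in *pbp1Δ* and 6.925 in WT libraries (n = 4 each). This test could therefore not show a small genotype difference, and no conclusion is drawn from it. Poly-A libraries give shares of the mRNA, so that less of these mRNAs per cell and more of the others cannot be told apart.

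**Figure D1:**
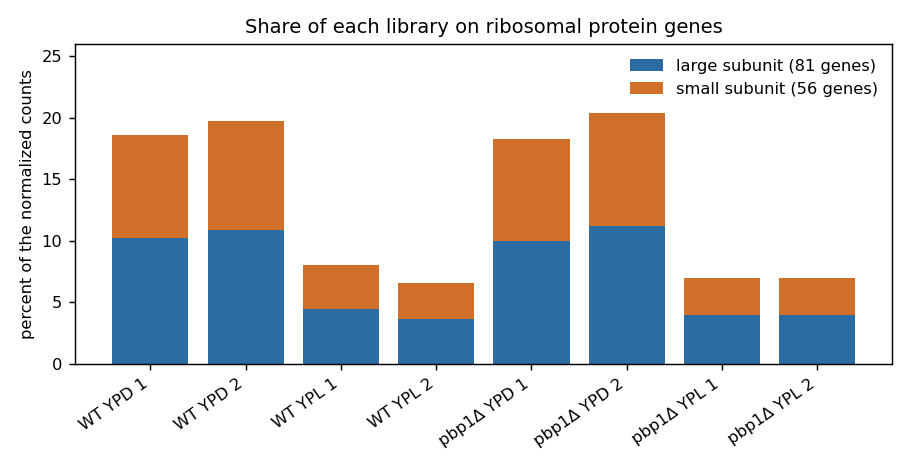
Percent of all normalized counts on the 81 large subunit and 56 small subunit genes, stacked in 1 bar for each of the 8 libraries. The 4 YPD bars reach 18.3% to 20.4% and the 4 YPL bars 6.54% to 7.99%, in both genotypes.

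Gene by gene, 129 of the 137 were called lower in YPL than in YPD in WT cells and 0 were called higher. A gene was called in limma at a Benjamini-Hochberg adjusted p under 0.05, over all genes tested, with an absolute log2 fold change over 0.58. Among all 5759 genes tested, 15.7% were called lower and 19.3% higher. The median log2 fold change was -1.59 over the ribosomal protein genes, a level 3.00-fold lower, and -0.00124 over all genes. The decrease was narrowly spread, with 122 of the 137 genes between -1 and -2 on the log2 scale and 4 beyond -2.

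In *pbp1Δ* cells 126 of the 137 were called lower and 0 higher, against 15.1% lower and 18.1% higher among all genes tested. Their median log2 fold change was -1.57. All 126 were also called lower in WT, and 8 genes were called in neither genotype. The libraries of the media did not overlap for 135 of the 137 genes in WT and for 132 in *pbp1Δ*, against 76.5% and 73.6% of all genes tested.

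**Figure D2:**
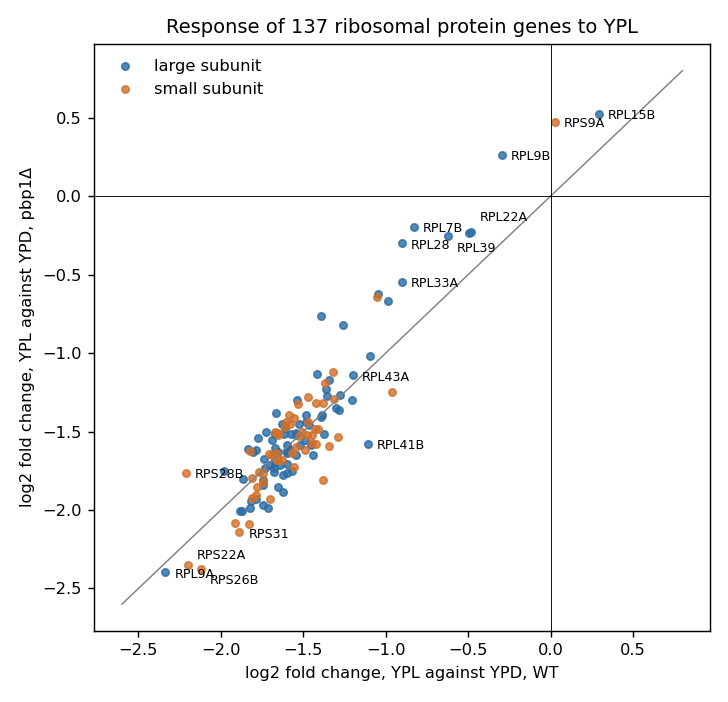
Log2 fold change from YPD to YPL of each of 137 genes in WT (horizontal axis) and in *pbp1Δ* cells (vertical axis), coloured by subunit, with the line of equal change. Most points lie between -1 and -2 near the line, and the labelled *RPL15B*, *RPS9A* and *RPL9B* lie near or above 0.

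The largest decrease was in *RPL9A* (YGL147C, chromosome VII, 227754 to 228329, no intron), which encodes the large subunit protein uL6. It had 72046 and 69373 normalized counts in the WT YPD libraries and 15849 and 12342 in YPL. In *pbp1Δ* cells it had 68426 and 72841 in YPD and 14218 and 12625 in YPL. The media stood far apart in both genotypes, with a level 5.05-fold lower in WT (log2 fold change -2.34, SE 0.138, limma adjusted p = 7.1e-05) and 5.27-fold lower in *pbp1Δ* cells.

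*RPS28B* (YLR264W, chromosome XII, 673131 to 673334), which encodes the small subunit protein eS28, came next. It had 16332 and 17030.4 normalized counts in WT in YPD and 4054 and 3184 in YPL. In *pbp1Δ* cells it had 16572 and 19099 in YPD and 5882 and 4664 in YPL. The log2 fold change was -2.21 in WT (SE 0.164, limma adjusted p = 0.000132) and -1.76 in *pbp1Δ* cells (limma adjusted p = 0.000326), and in YPL both *pbp1Δ* libraries were above both WT libraries.

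*RPS22A* (YJL190C, chromosome X, 74910 to 75302) encodes uS8. Its WT libraries fell from 57402 and 57277 normalized counts to 13851 and 11209, and its *pbp1Δ* libraries from 53664 and 57715 to 10775 and 11074. This was 4.60-fold lower in WT and 5.09-fold lower in *pbp1Δ* cells.

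*RPS26B* (YER131W, chromosome V, 423952 to 424311) encodes eS26, which lies at the mRNA exit channel. Its WT libraries fell from 61079.5 and 61903 normalized counts to 15839.6 and 12574, and its *pbp1Δ* libraries from 56027 and 61471 to 10963 and 11642. The level was 4.36-fold lower in WT and 5.19-fold lower in *pbp1Δ* cells.

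*RPL8B* (YLL045C, chromosome XII, 47859 to 48629) encodes eL8. Its WT libraries fell from 50064 and 47763 normalized counts to 13834 and 11103, and its *pbp1Δ* libraries from 45166 and 44007 to 14528 and 12033. With a 3.94-fold lower level in WT and 3.37-fold in *pbp1Δ* cells, it fell by more than its copy *RPL8A*.

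At the other end, 8 genes were not called in WT cells: *RPL15B*, *RPS9A*, *RPL9B*, *RPL22A*, *RPL22B*, *RPL28*, *RPL39* and *RPL43A*. *RPL15B* (YMR121C, chromosome XIII, 509734 to 510348) had 1603 and 1427 normalized counts in WT in YPD and 1868 and 1841 in YPL. In *pbp1Δ* cells it had 1419 and 1648 in YPD and 1944 and 2489.7 in YPL. Its YPL libraries were above its YPD libraries in both genotypes, with a log2 fold change of 0.29 in WT (SE 0.153, limma adjusted p = 0.165) and 0.52 in *pbp1Δ* cells (SE 0.153, limma adjusted p = 0.0313), which lies under the fold threshold. With the libraries scaled to equal totals the value in *pbp1Δ* cells was 0.62 and passed.

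*RPS9A* (YPL081W, chromosome XVI, 404950 to 406044, with an intron) encodes uS4. It had 6412 and 11379.5 normalized counts in WT in YPD, with 9478 and 7997 in YPL lying between them. In *pbp1Δ* cells it had 4337 and 6581 in YPD and 7422 and 7438 in YPL. The log2 fold change was 0.03 in WT (SE 0.302, limma adjusted p = 0.949) and 0.48 in *pbp1Δ* cells (limma adjusted p = 0.24). The WT value turned to -0.39 without the first WT YPD library.

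*RPL9B* (YNL067W, chromosome XIV, 499681 to 500256) had 22207 and 25647 normalized counts in WT in YPD and 21088 and 17887 in YPL. In *pbp1Δ* cells it had 16459.6 and 19880.4 in YPD and 22523 and 20896 in YPL. Its YPL libraries were lower than its YPD libraries in WT and higher in *pbp1Δ* cells, at log2 fold changes of -0.30 (limma adjusted p = 0.13) and 0.26 (limma adjusted p = 0.172). The difference between the genotypes in this response was 0.56 (SE 0.199, 95% interval 0.0806 to 1.04), with a limma adjusted p of 0.648.

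*RPL22A* and *RPL22B* encode eL22, a protein at the surface of the large subunit. *RPL22A* (YLR061W) had 777 and 1140.3 normalized counts in WT in YPD, 653 and 692 in WT in YPL, 809.7 and 1481 in *pbp1Δ* in YPD and 1028 and 848 in *pbp1Δ* in YPL. *RPL22B* (YFL034C-A) had 5134 and 8451 in WT in YPD, 5749 and 3792 in WT in YPL, 5013 and 8652 in *pbp1Δ* in YPD and 6416.5 and 4893 in *pbp1Δ* in YPL. The media overlapped for *RPL22B* in both genotypes and for *RPL22A* in *pbp1Δ* cells, with log2 fold changes of -0.49 (*RPL22A*) and -0.50 (*RPL22B*) in WT.

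Several of these genes also spread widely in YPD. In 6 genes, *RPL22A*, *RPL22B*, *RPL28*, *RPL39*, *RPL43A* and *RPS9A*, the second YPD library exceeded the first by more than 0.5 on the log2 scale in WT and in *pbp1Δ* cells. All 6 carry an intron, as 89 of the 137 genes do, and all 6 were among the 8 not called in WT. A reading frame of at least 100 codons lies on the opposite strand over coding bases in 4 of the 6. It does so in 5 of the 8 not called and in 17 of the 137. *RPL28* (YGL103W), the single-copy gene of uL15, had 3022 and 6442 normalized counts in WT in YPD and 4357 and 6363 in *pbp1Δ* in YPD. Over the 137 genes the median difference of the second from the first library was 0.056 in WT in YPD and 0.158 in *pbp1Δ* in YPD. The 6 genes were chosen by this difference, so that their distance from these medians is no separate result. A wide spread in YPD also enlarges the SE of the response to YPL, which makes a call less likely.

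Large and small subunit genes fell by nearly the same amount. The median log2 fold change in WT was -1.59 over the 81 large subunit genes, of which 74 were called lower, and -1.58 over the 56 small subunit genes, of which 55 were. In *pbp1Δ* cells the medians were -1.55, with 71 called lower, and -1.58, with 55 called lower. The median log2 level of the large subunit genes lay 0.154 ± 0.0129 (SD, n = 4) below that of the small subunit genes in YPD and 0.124 ± 0.0662 (SD, n = 4) below in YPL. The change of 0.0296 on the log2 scale had an exact permutation p of 0.371. Taken as summed counts, the log2 ratio of large to small subunit genes was 0.283 ± 0.00691 (SD, n = 4) in YPD and 0.347 ± 0.0285 (SD, n = 4) in YPL, a change of 0.0643 with an exact permutation p of 0.0286. These measures differ on whether the subunits changed by the same amount, and the larger of their differences is 0.0643 on the log2 scale.

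The stalk of the large subunit, which recruits elongation factors, is built from uL10 (*RPP0*) and the acidic proteins of *RPP1A*, *RPP1B*, *RPP2A* and *RPP2B*. All 5 genes were called lower in both genotypes. *RPP0* (YLR340W, chromosome XII, 805887 to 806825) had 63556 and 58157 normalized counts in WT in YPD and 20264 and 18154 in YPL. In *pbp1Δ* cells it had 61463 and 59689.6 in YPD and 25398 and 21351 in YPL, at log2 fold changes of -1.66 in WT and -1.38 in *pbp1Δ* cells. The log2 fold changes of the acidic proteins in WT were -1.54 (*RPP1A*), -1.52 (*RPP1B*), -1.82 (*RPP2A*) and -1.68 (*RPP2B*), near the median of all ribosomal protein genes. Their values were 48223 to 74668 normalized counts over the YPD libraries and 15183 to 24233 over the YPL libraries.

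Ubiquitin is made in part as a fusion to the ribosomal proteins eL40 (*RPL40A*, *RPL40B*) and eS31 (*RPS31*). *RPS31* (YLR167W, chromosome XII, 498947 to 499405) fell from 178281 and 174967 normalized counts to 53167 and 42858 in WT, and from 171031 and 182959 to 39466 and 40735 in *pbp1Δ* cells. All YPL libraries were under all YPD libraries, at log2 fold changes of -1.89 in WT and -2.14 in *pbp1Δ* cells. *RPL40A* fell by 1.61 and *RPL40B* by 1.84 on the log2 scale in WT, with 12372 to 22235 normalized counts over the YPL libraries of both genes and 43095 to 58667 over the YPD libraries.

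Genes with and without an intron, a second copy or a promoter motif had close medians. The median log2 fold change in WT was -1.57 over the 89 genes with an intron and -1.61 over the 48 without. It was -1.60 over the 19 single-copy genes and -1.57 over the 118 duplicated ones. A Rap1 motif, ACCCNNACA on either strand, was found within 500 bases before the start codon in 54 of the 137 genes (39.4%) and in 5.5% of 5768 promoters of the same length. The median was -1.58 over the 54 genes with the motif and -1.60 over the 83 without it.

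The matches of 2 genes that fell strongly or weakly are shown with 16 bases on each side, in the direction of the gene, with the match in capitals. The first lies 301 bases before the start codon of *RPL9A* (chrVII:228615-228655, minus strand), with the motif on the opposite strand. The second lies 236 bases before that of *RPL22B* (chrVI:65153-65193, minus strand).

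RPL9A: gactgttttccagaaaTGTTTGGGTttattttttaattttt
RPL22B: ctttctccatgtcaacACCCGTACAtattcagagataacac

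Both carried a match although *RPL9A* fell 5.05-fold in WT and *RPL22B* was not called. Other motifs were not more frequent than elsewhere: AAAATTTT (RRPE) was found in 12.4% of the 137 and 12.7% of all promoters, GATGAG (PAC) in 21.9% and 27.8%, TTACCCG (Reb1) in 5.1% and 10.4%, and the Abf1 motif in 17.5% and 23%. PAC and RRPE are known from genes for ribosome assembly. No match says only that these letters are not in the window.

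The A to B ratio within a pair changed little in size between media in most pairs, though often without overlap of the libraries. The median absolute change of the log2 ratio was 0.229 over the 59 pairs, and 0.744 over 322 other duplicate gene pairs of the genome, which were reciprocal best protein matches with a mean of at least 100 in both copies. The other pairs were not matched to the ribosomal protein pairs in level. The YPD and YPL libraries did not overlap in 38 of the 59 pairs. In the other duplicate pairs 63.4% did not overlap, so that this share does not set the ribosomal protein pairs apart. Changes over 0.58 on the log2 scale, without overlap, were found in 13 of the 59 pairs and in 174 of the 322 others, and in 11 of the 13 at least 80% of the 100-base stretches of both copies are unique. The sign of the change was the same in WT and *pbp1Δ* cells in 54 of the 59 pairs.

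**Figure D3:**
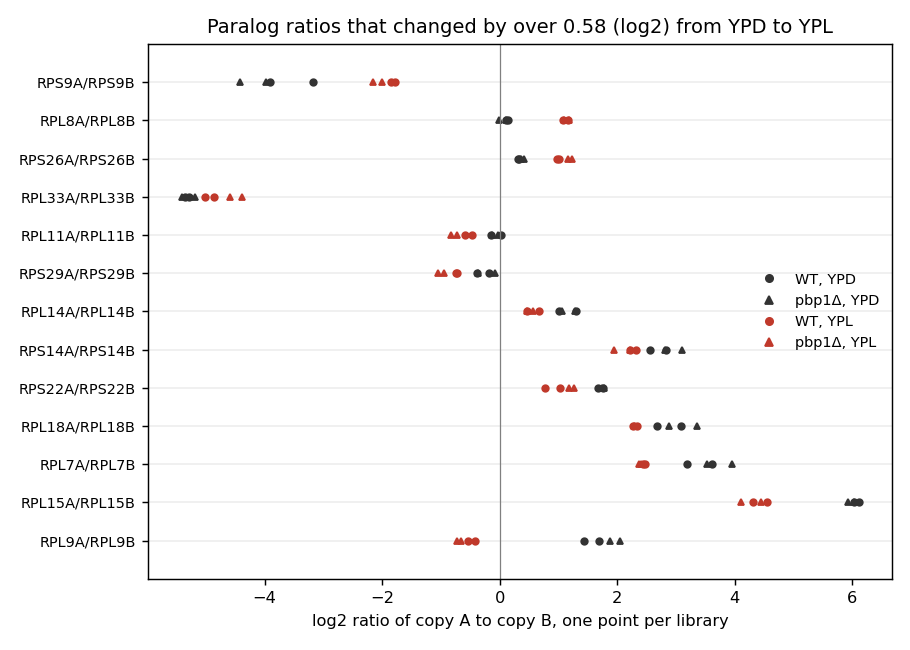
Log2 ratio of copy A to copy B in each of the 8 libraries for the 13 of 59 pairs that changed by over 0.58 without overlap, ordered by the change from YPD (black) to YPL (red), with circles for WT and triangles for *pbp1Δ*. *RPL9*, in the lowest line, crosses from 1.44 to 2.06 in YPD to -0.727 to -0.412 in YPL.

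The *RPL9* pair had the largest change, and its more abundant copy differed between the media. The log2 ratio of *RPL9A* to *RPL9B* was 1.70 and 1.44 in WT in YPD, 2.06 and 1.87 in *pbp1Δ* in YPD, -0.412 and -0.535 in WT in YPL and -0.664 and -0.727 in *pbp1Δ* in YPL. *RPL9B* therefore went from 22.7% of the pair in YPD to 60.0% in YPL. The change was -2.35 on the log2 scale (-2.04 in WT and -2.66 in *pbp1Δ* cells), with an unadjusted exact permutation p of 0.0286. The proteins of both copies have 191 residues and are 97.9% identical.

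*RPS9* moved the other way, from a log2 ratio of -3.87 ± 0.518 (SD, n = 4) in YPD to -1.95 ± 0.164 (SD, n = 4) in YPL. Its main copy *RPS9B* fell from 96449 and 102405 normalized counts to 34221 and 27617 in WT, and from 92809 and 103709 to 33134 and 29632 in *pbp1Δ* cells. *RPS9A*, given above, did not fall, and *RPS9B* still held 79.4% of the pair in YPL after 93.6% in YPD.

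*RPL15*, which encodes eL15, kept *RPL15A* as its main copy. *RPL15A* had 104154 and 98460.05 normalized counts in WT in YPD and 43532 and 36629 in YPL, and 92499.6 and 99933 in *pbp1Δ* in YPD and 42243 and 43039 in YPL. The pair's log2 ratio went from 6.02 ± 0.076 (SD, n = 4) to 4.35 ± 0.186 (SD, n = 4), which put *RPL15B* at 1.52% of the pair in YPD and 4.67% in YPL.

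*RPL7* and *RPL8* completed the 5 largest changes. For *RPL7*, which encodes uL30, the log2 ratio went from 3.57 ± 0.314 (SD, n = 4) to 2.42 ± 0.042 (SD, n = 4), and only 67.3% of the 100-base stretches of either copy are unique. *RPL7A* fell from 96831 and 96540.1 normalized counts to 31048 and 25677 in WT, and *RPL7B* from 7869.9 and 10572 to 5709 and 4629. For *RPL8* the ratio went from 0.088 ± 0.063 (SD, n = 4) to 1.13 ± 0.048 (SD, n = 4): the copies were equal in YPD, and *RPL8A*, with 53726 and 52734 falling to 29106 and 24717 normalized counts in WT, was 2.18-fold above *RPL8B* in YPL. Over the 59 pairs, the less abundant copy gained in 35.

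The pairs with the most unequal copies were *RPL43*, *RPL15*, *RPL33*, *RPL36* and *RPL7*. *RPL43A* (YPR043W) had 326 and 622 normalized counts in WT in YPD and 213 and 179.97 in YPL, against 29236 and 31959, and 14789 and 11894, for *RPL43B* (YJR094W-A). *RPL33A* (YPL143W) had 527 and 605 in WT in YPD and 341 and 267 in YPL, against 20544 and 24857, and 9971 and 8670.4, for *RPL33B* (YOR234C). *RPL36B* (YPL249C-A) had 551.5 and 537 in YPD and 236 and 181 in YPL, against 14571 and 16105, and 6089 and 5239, for *RPL36A* (YMR194W). In YPD *RPL43B* held 98.4% of its pair and *RPL33B* 97.5%, while *RPL36B* held 3.54%.

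Low levels coincided with open reading frames on the other strand. Per 1000 coding bases, the mean over the 8 libraries ranged from 1283 normalized counts (*RPL43A*) to 476853 (*RPL41A*). The 8 lowest genes were *RPL43A*, *RPL36B*, *RPL33A*, *RPL39*, *RPL22A*, *RPL15B*, *RPL7B* and *RPL28*, and 7 of these 8 have a reading frame of at least 100 codons on the opposite strand over their coding bases, as do 17 of all 137. These frames cover 99.3% of the coding bases of *RPL43A*, 96.2% of *RPL39*, 96.7% of *RPL22A*, 89.1% of *RPL28*, 88.0% of *RPL33A*, 52.7% of *RPL15B* and 49.0% of *RPL7B*. *RPL39* (YJL189W) and *RPL28* are single-copy genes, and *RPL39* had 222 and 344 normalized counts in WT in YPD and 177 and 181 in YPL.

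The relation was not general. *RPS15* lies under such a frame over 100% of its coding bases and *RPL3* over 74.2%, and they had 137387 and 115875 normalized counts per 1000 coding bases, while *RPL36B* has none. The median level per 1000 coding bases was 19330 over the 17 genes and 80810 over the other 120. In the response to YPL, 12 of the 17 were called lower in WT, at a median log2 fold change of -1.20, and 117 of the other 120, at -1.60. Of the 5 pairs whose ratio changed most, *RPL9* and *RPS9* have no such frame, *RPL15* and *RPL7* have one in the B copy and *RPL8* has one in both. The frames are not rows of the table, no coding exon of the 137 genes overlaps another gene of the RefSeq annotation, and whether the counting used the strand is not stated. Whether such frames in the annotation used for counting lowered these values was not tested.

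**Figure D4:**
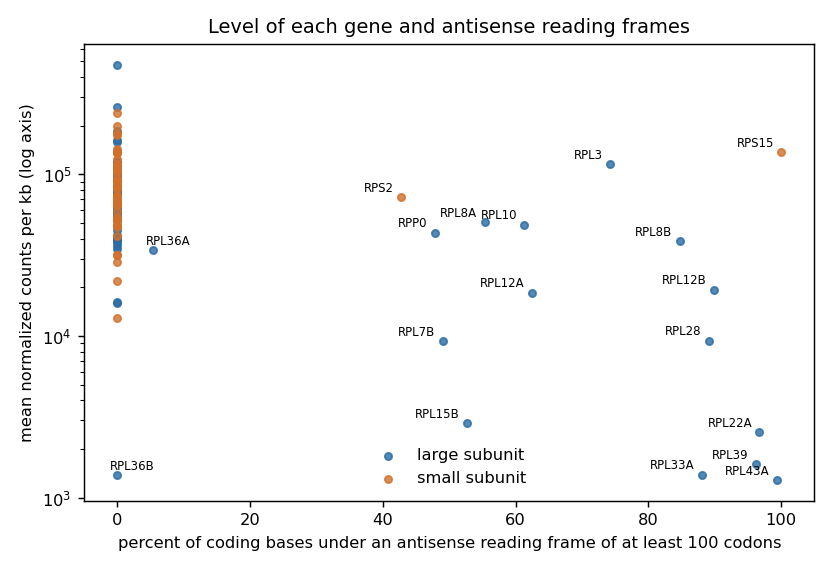
Mean normalized counts per 1000 coding bases of each of 137 genes (log axis) against the percent of its coding bases under an opposite-strand reading frame of at least 100 codons, coloured by subunit. Of the 8 lowest genes all but *RPL36B* have such a frame, while *RPS15* has one over 100% of its bases at a level near the others.

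The deletion of *PBP1* gave no call among the ribosomal protein genes in the fit of all 8 libraries without a replicate block. In YPD 0 of the 137 were called by limma in either direction, against 0.972% of all genes tested, and 2 (*RPL9B* and *RPS7B*) had an unadjusted p under 0.05, against 8.2% of all genes. In YPL 0 were called, against 4.69% of all genes, and 6, among them *RPL24B*, *RPL36B* and *RPS22B*, had an unadjusted p under 0.05, against 17.8% of all genes. For the difference between the genotypes in the response to YPL 0 were called, against 0.0695% of all genes, and 1, *RPL9B*, had an unadjusted p under 0.05, against 7.02%. The median log2 fold changes of *pbp1Δ* against WT were -0.049 in YPD and -0.048 in YPL, and both turned positive with the libraries centred on their medians (0.021 and 0.014). With a replicate block within each medium, *RPS9A* was called lower in YPD, and *RPL28* and *RPL36B* higher in YPL. That fit called 192 genes lower and 22 higher in YPD among all 5759 tested, and 401 and 102 in YPL. For the difference in response it called 4 of the 137, where 201 genes were called lower and 159 higher. The labels tie the replicate numbers to no common culture.

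How large a change these libraries could miss differed between the comparisons, by intervals taken gene by gene and not adjusted. The 95% interval of the genotype's log2 fold change lay within 0.58 of 0 for 126 of the 137 genes in YPD and for 107 in YPL. For the difference in response it did so for 71. The median distance from an estimate to the end of its interval was 0.323 in each medium and 0.456 for the difference in response.

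**Figure D5:**
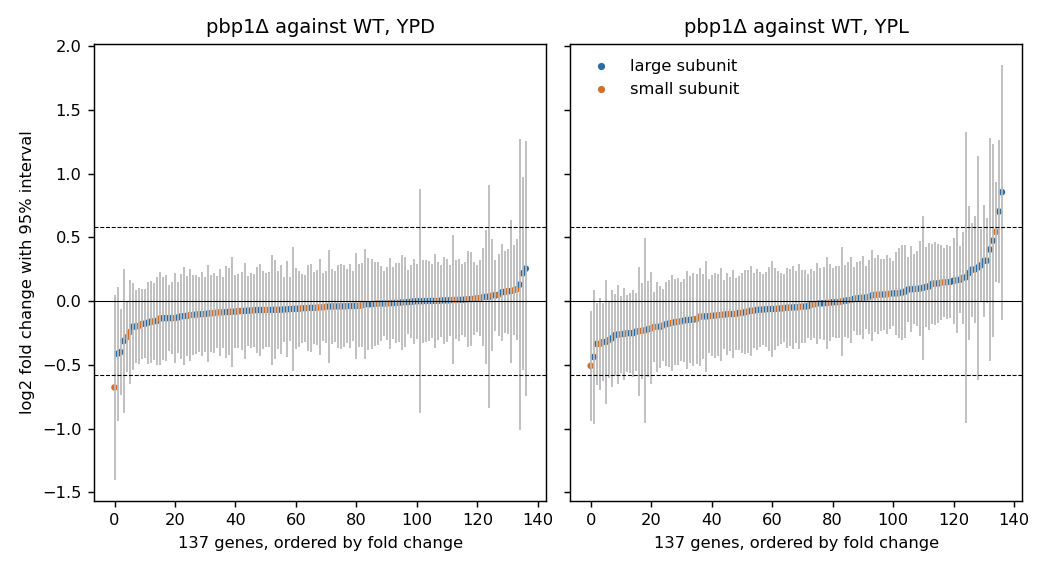
Log2 fold change of *pbp1Δ* against WT with its 95% interval for each of 137 genes in YPD (left) and YPL (right), ordered by size and coloured by subunit, with dashed lines at 0.58 on both sides of 0. The intervals lie between the dashed lines for 126 genes in YPD and 107 in YPL, and 0 genes were called in this fit, which had no replicate block.

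In YPD the lowest values were in *RPS9A* (-0.68, SE 0.302), *RPL7B* (-0.41, SE 0.219) and *RPL9B* (-0.40, SE 0.141), and the highest in *RPL28* (0.25), *RPL22A* (0.22) and *RPL43A* (0.13). The 3 lowest are 1 copy each of 3 of the 5 pairs whose ratio changed most between media. The 3 highest are genes of wide spread, and each changed sign without the first WT library in YPD, and also without the second *pbp1Δ* library in YPD.

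In YPL the lowest values were in *RPS22B* (-0.51, SE 0.180), *RPL41B* (-0.44, SE 0.218) and *RPL24B* (-0.34, SE 0.134). *RPS22B* (YLR367W, with an intron) had 8103 and 5477 normalized counts in WT and 4768 and 4605 in *pbp1Δ* cells. *RPL41B*, which encodes the smallest ribosomal protein, had 15632 and 11132 in WT and 10126 and 9364 in *pbp1Δ*, and *RPL24B*, which encodes eL24, had 19079.5 and 15229 in WT and 12819 and 14229.6 in *pbp1Δ*. In each of the 3 the WT libraries were both above the *pbp1Δ* libraries, which the choice of the lowest values favours.

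The highest values in YPL were in *RPL28* (0.85, SE 0.415), *RPL36B* (0.70, SE 0.233) and *RPS28B* (0.54, SE 0.164). *RPL28* had 2869 and 1947 normalized counts in WT and 5242 and 3486 in *pbp1Δ* cells, and *RPL36B* had 236 and 181 in WT and 411 and 276 in *pbp1Δ*. In all 3 genes both *pbp1Δ* libraries were above both WT libraries, which the choice of the highest values favours. The smallest exact permutation p of 2 libraries against 2 is 0.333. The limma adjusted p of the 3 genes were 0.356, 0.18 and 0.146. With only the 4 YPL libraries in the fit *RPL28* was the 1 ribosomal protein gene called, at a limma adjusted p of 0.0412. That fit called 374 genes lower and 83 higher among all 5745 tested.

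The medians of the assembly factors and the elongation factors fell less than that of the ribosomal protein genes. Of 84 ribosome assembly factors, 56 were called lower in WT in YPL, at a median log2 fold change of -0.82, and 52 in *pbp1Δ* cells, at -0.76. Among all genes tested 15.7% were called lower in WT and 15.1% in *pbp1Δ* cells. The median log2 level of the ribosomal protein genes lay 2.25 ± 0.215 (SD, n = 4) above that of the assembly factors in YPD and 1.36 ± 0.0807 (SD, n = 4) above in YPL. The narrowing of 0.894 on the log2 scale, a change of -0.894, had an exact permutation p of 0.0286, and the media did not overlap. Among 10 elongation factor genes, 8 were called lower in WT and 5 in *pbp1Δ* cells, and *HEF3*, the minor copy of elongation factor 3, was called higher at 0.88 in WT. *HYP2* was also planned for this list, but its symbol was not matched and it is missing from these values. *ANB1*, the hypoxic gene of eIF5A, fell by 2.66 in WT (limma adjusted p = 0.00734), past the -2.34 of *RPL9A*, from 160 and 67.1 normalized counts to 13.4 and 18.0. Against the median of these genes the ribosomal protein genes moved by -0.447 (exact permutation p = 0.0286), with -0.295 in WT and -0.598 in *pbp1Δ* cells, and by -0.829 with means in place of medians.

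Of 9 ribosome-bound proteins 8 were called lower in WT, against 15.7% of all genes tested. The largest decreases were in *ASC1* (-1.72), which encodes the small subunit scaffold RACK1, and the chaperone *SSB1* (-1.37). The others were *STM1* (-1.34), *ZUO1* (-1.10), *EGD1* (-1.06), *EGD2* (-0.99), *SSB2* (-0.90) and *SSZ1* (-0.89). Of 9 dedicated chaperones of ribosomal proteins 6 were called lower in WT, against the same 15.7%. These were *TSR2* (-1.16), which carries eS26, *ACL4* (-0.93), which carries uL4, *BCP1* (-0.85), *TSR4* (-0.74), *LOC1* (-0.70) and *SYO1* (-0.68). *RPP1*, set apart above, was called lower as well (-0.71, limma adjusted p = 0.00992).

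Of 14 transcription regulators of these genes 0 were called lower in WT, against 15.7% of all genes tested. With 14 genes, 0 is not far from that share. The 1 regulator called in WT was *CRF1*, which encodes a corepressor at ribosomal protein promoters in some strains. It was higher at 1.23 (limma adjusted p = 0.00976), where 19.3% of all genes tested were called higher. *HMO1* (-0.47) and *RAP1* (-0.51) had limma adjusted p of 0.00266 and 0.0452 and missed the fold threshold, and *FHL1* (-0.54), *IFH1* (0.17) and *SFP1* (0.31) missed the p threshold. Among 12 genes of the TORC1, Sch9 and protein kinase A pathways, *LST8* was called higher (1.07) and *TPK3* lower (-0.85) in WT. This is no more than the 19.3% and 15.7% of all genes tested. None of the genes of these lists was called between genotypes by limma, against 0.972% of all genes tested in YPD and 4.69% in YPL. At an unadjusted p under 0.05 in limma the comparison in YPD held 1 of 12 kinase pathway genes and 5 of 84 assembly factors, against 8.2% of all genes tested. That in YPL held 1 of 9 ribosome-bound proteins, 2 of 10 elongation factor genes and 3 of 84 assembly factors, against 17.8%.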

How the data were processed

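Poly-A RNA of WT and *pbp1Δ* cells in YPD and YPL was sequenced in 8 libraries, 2 for each group. The authors trimmed the reads with Trim Galore, mapped them to S288C with STAR 2.7.3a, kept unique alignments, counted them per gene with featureCounts (Subread 1.6.3) and normalized with DESeq2. The deposited values are normalized counts on a linear scale (a signal, 1 size factor per library). Cells were CEN.PK, so that reads differing from S288C may be lost, and whether the counting used the strand is not stated. In each library 100% of the values were whole multiples of a single number within 0.01. It was used as the value of a read.

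Genes with a mean under 10 were left out and the other 5759 were tested on the scale log2(normalized count + 1), in limma 3.58.1 (R 4.3.3) with a trend, in 1 fit over 4 groups. Fold changes are on this scale. Single values per library were compared with two-sided exact permutation tests. Calls needed a p, adjusted after Benjamini and Hochberg, under 0.05 and a log2 fold change beyond 0.58 either way, except in the interaction, which had no fold threshold. The scripts were tested on simulated data. Coordinates and sequences are from RefSeq on R64, in which all 5774 identifiers matched. Tables and plots were made with Python 3.11.15.

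The members, the gene lists and the rule for named genes were chosen with earlier results of these data known. Named were the 5 lowest and 5 highest genes in the response of WT, the 3 lowest and 3 highest for the genotype in each medium, the 5 pairs with the largest change and the 5 with the largest mean ratio, the stalk and ubiquitin fusion genes, and the called members of the regulator, chaperone and ribosome-bound lists. *RPL39*, *RPL28* in YPD, *RPL3*, *RPS15*, *RPL41A*, *RPS7B*, *LST8*, *TPK3*, *ANB1* and *HEF3* were named after their values were seen. Alternatives changed the pseudocount, filter, scaling, block, trend, threshold and libraries.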

Additional observations from a re-analysis of the deposited data

Results flagged for a closer look

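*RPL9B* was the only ribosomal protein gene whose libraries moved in opposite directions in the genotypes. Both WT libraries were lower in YPL than both in YPD, and both *pbp1Δ* libraries were higher. The interaction was 0.56 on the log2 scale, with an unadjusted p of 0.0284 and an adjusted p of 0.648 in limma, so that the difference did not pass the test. With a replicate block within each medium it did, at a limma adjusted p of 0.0176. In the interaction that fit called 201 genes lower and 159 higher among all 5759 tested, against 3 and 1 without a block.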

How the results depend on the processing

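The counts of ribosomal protein genes called lower in YPL stayed within 1.5 times under every alternative, between 122 and 132 in either genotype. The 2 replicate numbers are shared by all groups, but the labels tie them to no common culture. The deviations of same-numbered libraries correlated at 0.855 between the genotypes in YPD, 0.243 in YPL and -0.217 between media in WT. With a replicate block over both media, 129 genes were called in WT, 126 in *pbp1Δ* and 0 between genotypes. With a replicate block within each medium, 132 and 128 were called, and 1 between genotypes in YPD (*RPS9A*, lower), 2 in YPL (*RPL28* and *RPL36B*, higher) and 4 in the interaction (*RPL7B*, *RPL9B*, *RPL18B* and *RPS28B*). Among all 5759 genes tested, that fit called 192 lower and 22 higher between genotypes in YPD, and 401 and 102 in YPL. In the interaction it called 201 lower and 159 higher. Without a block these counts were 50 and 6 in YPD, 240 and 30 in YPL, and 3 and 1 in the interaction. Crossing the numbers in WT gave 130 calls. With only the 4 YPL libraries fitted, 1 gene (*RPL28*) was called between genotypes, where 374 genes were called lower and 83 higher among all 5745 tested. *RPL15B* was the 1 gene called higher in *pbp1Δ* with libraries scaled to equal totals or without the first *pbp1Δ* YPL library. Scaling to totals moved the median of all genes to 0.176 and centring to -0.127 in WT.

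Summed counts gave 0.0643 for the large minus small subunit change between media, and leaving out 1 library gave 0.0113 to 0.0609, with an exact permutation p of 0.0286 without the first *pbp1Δ* YPL library. Its genotype difference turned to 0.0238 with summed counts and ranged from -0.0341 to 0.0155 with a library left out. The genotype difference in share was 0.0211 without the 10 most abundant genes and -2.48 to 2.10 with a library left out, which unbalances the media. The difference from elongation factors was -0.829 with means, and -0.509 to -0.347 with a library left out, with an exact permutation p of 0.0571 without the second *pbp1Δ* YPD library.

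Signs of single genes turned with 1 library left out. In the response to YPL, *RPS9A* in WT ranged from -0.386 to 0.441 (-0.099 when centred), and in *pbp1Δ* *RPL22A* ranged from -0.665 to 0.205, *RPL22B* from -0.627 to 0.16 and *RPL7B* from -0.453 to 0.062. For the genotype in YPD, *RPL22A* ranged from -0.217 to 0.654, *RPL28* from -0.291 to 0.801 and *RPL43A* from -0.443 to 0.701. Of the other values of named genes under an alternative, 1398 kept their direction and call, 16 gained a call (of *RPL15B*, *RPL28*, *RPL33A*, *RPL36B*, *RPL43A* and *RPS9A*) and 11 lost it (of *RPL7B*, *RPL8A*, *RPL33A* and *RPL36B*). edgeR and DESeq2 were not run on the recovered reads, since too few low values (58 to 80 a library) were there to test these. The paper also describes a supplement of raw read counts, which was not used here.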
